A study of Rattus norvegicus with 2 samples.

Results

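The genes of AMP-activated protein kinase (AMPK) and its upstream kinases were followed in the left adrenal medulla of adult male Sprague-Dawley rats. The members were taken from a list of gene symbols. They comprise 10 genes of the 14217 that the array reads through a probe set naming a single gene, namely the catalytic subunits Prkaa1 and Prkaa2, the scaffold subunits Prkab1 and Prkab2, the nucleotide-binding subunits Prkag1 and Prkag2, the LKB1 kinase Stk11 with its scaffold Cab39, and the calmodulin-dependent kinases Camkk1 and Camkk2. These genes were read by 20 probe sets out of 31042. All animals were normal rats with jugular vein and carotid artery catheters that were fasted overnight. On day 4 they underwent a hyperinsulinemic-hypoglycemic clamp held at 40 to 50 mg/dL glucose, and they were killed 30 min after the target was reached. They differed in the preceding 3 days, in which the 2RH30 rats had intraperitoneal human insulin at 2 IU/kg (recurrent hypoglycemia, RH) and the 2RS30 rats had saline, each 2 times per day with a single injection on day 3. Rats with RH serve as a model of defective counter-regulation without diabetes, and the other time points of the study were not analysed here. RNA of 6 rats was pooled for each group and hybridized to 1 Affymetrix rat genome array, a short oligonucleotide array. Each group is therefore 1 measurement. The spread between animals is unknown, no p-value is given, and every difference below is between these 2 pools. Since 2RS30 rats were hypoglycemic too, a response that both groups share would not appear.

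AMPK is the cellular sensor of energy shortage. Its gamma subunit binds AMP, ADP or ATP, its beta subunit holds the complex together and binds glycogen, and its alpha subunit carries the kinase domain, which is switched on when LKB1 phosphorylates its activation loop. LKB1 is active in a complex with a STRAD pseudokinase and an MO25 scaffold, whereas CAMKK2 phosphorylates the same site when calcium rises, as it does in chromaffin cells that receive acetylcholine from the splanchnic nerve. The kinase is regulated mostly by phosphorylation and nucleotides, which an mRNA array does not measure.

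Of the 20 probe sets, 3 read 2-fold or more higher in 2RH30 and 1 read 2-fold or more lower, where 10.4% of all 31042 probe sets were higher and 12.1% were lower by that much. The 3 higher ones were 1 of the 3 probe sets for Stk11 and 2 of the 4 for Prkag2, and the lower one was 1 of the 3 for Prkaa1. The median difference of the 20, 2RH30 minus 2RS30 on the log2 scale as for all differences here, was 0.36 against 0.02 for all probe sets. A total of 13 were above 0 and 7 below, where 51.0% of all probe sets were above 0. Of the 20 probe sets, 14 were at or above the array median on at least 1 array. The other 6, called dim below, were under the median of both arrays. Among the 14, 10 were above 0 and the median was 0.44, against 62.0% above 0 and a median of 0.23 for all 18446 probe sets that were not dim. Level-adjusted, 8 of the 14 were above 0, against 48.5%.

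Brighter probe sets tended to read higher in 2RH30 on these arrays, with a median difference of -0.38 in the dimmest of 20 level bins and 0.49 in the brightest. Of the transcripts added to each sample as hybridization controls, bioB differed by -3.25 and cre by -0.41, each as a mean over its probe sets. Other controls were not summarized. The SD of the values was 1.28 on the 2RS30 array and 1.57 on the 2RH30 array. Because of the trend with level, differences are also given after this trend was subtracted, called level-adjusted. The controls do not enter that adjustment. Level-adjusted, 1 member probe set was 2-fold or more higher and 1 was lower, against 8.99% and 10.2% of all probe sets. The level-adjusted median of the members was 0.15, against 0.00 for all probe sets. The part of the array differences in the values below was not tested. Deposited differences of probe sets for the same gene, where not dim, had an SD of 0.83 for levels between 5 and 7 and of 0.55 from 7 upward. It is the measure of error used here for a single probe set, although it holds no spread between rats or pools.

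**Figure D1:**
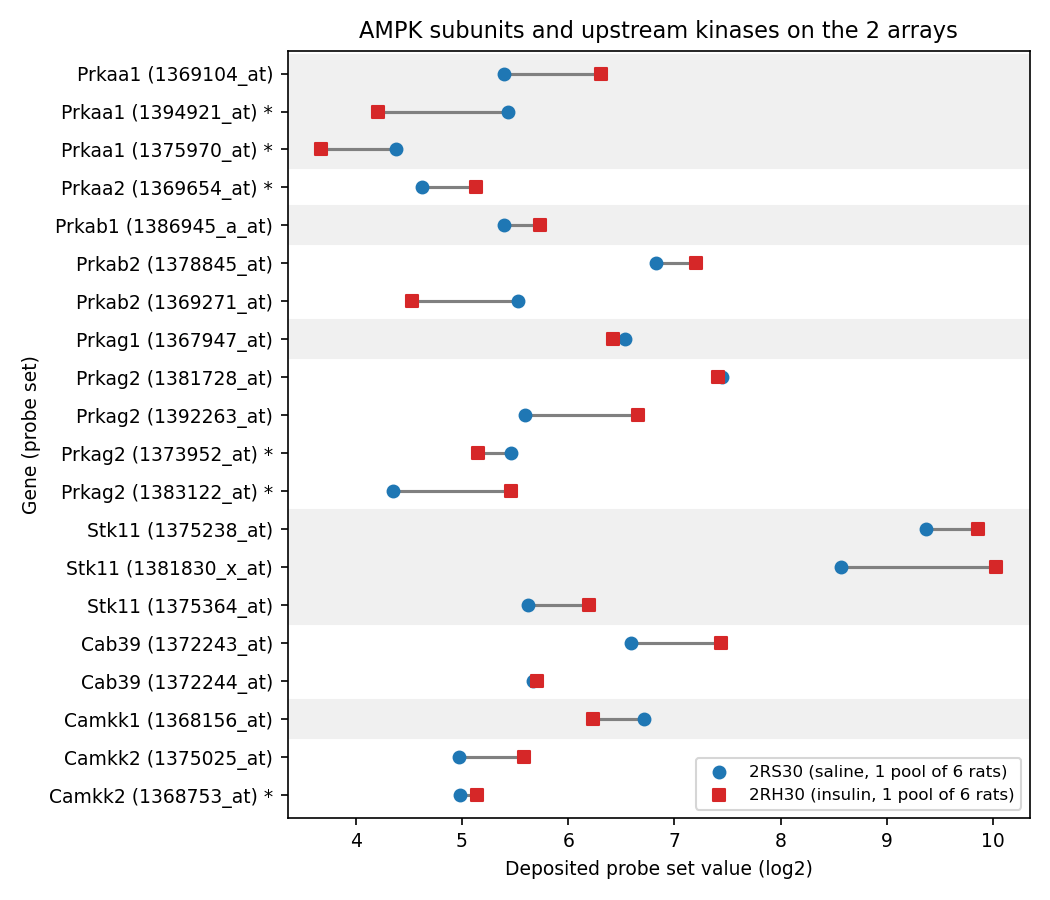
Deposited log2 value (horizontal axis) of each of the 20 probe sets (vertical axis, grouped by gene) in 2RS30 (blue circles) and 2RH30 (red squares), each from 1 pool of 6 rats. Lines join the 2 values of a probe set and asterisks mark the 6 dim probe sets. The 3 Stk11 probe sets have their red square to the right, whereas those of Prkaa1, Prkab2 and Prkag2 point both ways.

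The catalytic alpha subunits were read first. Prkaa1, which encodes alpha1, gave 5.39 with 2RS30 and 6.31 with 2RH30 in its brightest probe set (1369104_at), differing by 0.91 (0.76 after level adjustment). Its other probe sets went the opposite way. The value of 1394921_at was 5.43 with 2RS30 and 4.21 with 2RH30, differing by -1.22 (-1.04 after level adjustment), and that of 1375970_at was 4.38 and 3.68, differing by -0.70 (-0.27 after level adjustment). Both of these were dim. The distance between the highest and lowest difference of Prkaa1 was 2.13, and 86.0% of the 1036 genes with 3 probe sets had a distance no larger. The direction of Prkaa1 thus depended on the probe set that was read, and the mean over its probe sets was -0.34. Prkaa2, which encodes alpha2, had a single dim probe set that gave 4.62 with 2RS30 and 5.13 with 2RH30, differing by 0.51 (0.67 after level adjustment). From the brightest probe set of each gene, Prkaa1 exceeded Prkaa2 in its difference by 0.40 as deposited and by 0.09 level-adjusted, both smaller than the SD between probe sets.

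The beta subunits carry the scaffold of the kinase. Prkab1, which encodes beta1, gave 5.39 with 2RS30 and 5.74 with 2RH30 in its single probe set, differing by 0.35 (0.26 after level adjustment). Prkab2, which encodes beta2, gave 6.83 with 2RS30 and 7.20 with 2RH30 in the brighter of its probe sets, differing by 0.38 (0.06 after level adjustment). Its other probe set (1369271_at) read 5.53 and 4.53, differing by -0.99 (-0.89 after level adjustment), just short of 2-fold. Neither was dim, and the signs were opposite. The differences of Prkab1 and Prkab2 were within 0.03 of each other as deposited when each gene was read from its brightest probe set, and Prkab1 was higher by 0.20 level-adjusted.

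The gamma subunits bind the adenine nucleotides. Prkag1, which encodes gamma1, gave 6.53 with 2RS30 and 6.42 with 2RH30, differing by -0.11 (-0.35 after level adjustment). Prkag2, which encodes gamma2, was read by 4 probe sets that formed 2 pairs. Its brightest (1381728_at) gave 7.45 with 2RS30 and 7.41 with 2RH30, differing by -0.03 (-0.41 after level adjustment), and the dim 1373952_at read 5.46 and 5.15, differing by -0.31 in both forms. In contrast, 1392263_at gave 5.59 with 2RS30 and 6.66 with 2RH30, differing by 1.06 (0.88 after level adjustment), and the dim 1383122_at read 4.35 and 5.46, differing by 1.11 (1.26 after level adjustment). The last was the member probe set that stayed 2-fold or more higher after level adjustment. Among the 1000 probe sets nearest in mean level, 26.1% differed by at least as much as this probe set as deposited and 17.7% level-adjusted. Disagreement of this kind was common on these arrays. The distance between the highest and lowest Prkag2 probe set was 1.42, below the median of 1.57 for the 290 genes with 4 probe sets, of which 79.0% had probe sets on both sides of 0. Which transcripts of Prkag2 each probe set reads was not determined here.

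For LKB1 and its scaffold, 5 of 5 probe sets read higher in 2RH30 as deposited, which also held for both probe sets of Camkk2 and for the single ones of Prkaa2 and Prkab1. None of the 5 was dim, and 62.0% of all probe sets that were not dim read higher, so the count is to be read against that share. Stk11, which encodes LKB1, gave 9.36 with 2RS30 and 9.86 with 2RH30 in its brightest probe set (1375238_at), differing by 0.50 (-0.03 after level adjustment). The probe set 1381830_x_at gave 8.57 with 2RS30 and 10.03 with 2RH30, differing by 1.46 or 2.75-fold (0.94 after level adjustment). This was the largest difference of the 20 as deposited. Among the 1000 probe sets nearest in level, 3.5% differed by at least as much, and 5.5% did level-adjusted. The suffix of this probe set marks probes that can also bind other, similar transcripts, so its value may not come from Stk11 alone. The third Stk11 probe set (1375364_at) read 5.62 and 6.20, differing by 0.58 (0.42 after level adjustment). Without 1381830_x_at the Stk11 differences were thus 0.50 and 0.58, against an SD between probe sets of 0.55 and 0.83 at their levels.

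Cab39, which encodes the MO25 alpha scaffold of the LKB1 complex, gave 6.59 with 2RS30 and 7.44 with 2RH30 in its brighter probe set, differing by 0.84 (0.52 after level adjustment). Its other probe set read 5.67 and 5.71, differing by 0.04 (-0.08 after level adjustment). Over the 5 probe sets of Stk11 and Cab39 the median difference was 0.58 as deposited and 0.42 level-adjusted, with 3 of the 5 above 0 in the latter. Over the 12 probe sets of the AMPK subunits it was 0.16 and -0.11, with 6 above 0 and 6 below in both forms. The difference between these medians has no test, since the probe sets share the same 2 pools. The sets also differ in brightness. None of the 5 was dim, whereas the 12 include dim probe sets of Prkaa1, Prkaa2 and Prkag2. Brighter probe sets tended to read higher in 2RH30, and the part of this in the deposited medians was not tested.

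The start regions of the LKB1 complex genes are shown because their probe sets all read higher in 2RH30 as deposited. Prkaa2 and Prkab1 met this too, and their windows are not shown. Level-adjusted, 3 of the 5 LKB1 complex probe sets were above 0. The choice rests on the same 2 arrays, and a link between motifs and differences was not tested. Windows from 250 bases before to 50 after the start were taken from RefSeq for the GRCr8 assembly, which lists 10 windows for 9 of the 10 genes, all but Camkk2. The motifs were searched on both strands, namely TGACG, the core of the cAMP response element, GGGCGG, the GC box, and CACGTG, the E box. The sequences are written 5' to 3' on the strand of the gene, with matches in capitals. The Stk11 window is chr7:10241916-10242215 on the minus strand and the Cab39 window is chr9:93910849-93911148 on the plus strand.
Stk11: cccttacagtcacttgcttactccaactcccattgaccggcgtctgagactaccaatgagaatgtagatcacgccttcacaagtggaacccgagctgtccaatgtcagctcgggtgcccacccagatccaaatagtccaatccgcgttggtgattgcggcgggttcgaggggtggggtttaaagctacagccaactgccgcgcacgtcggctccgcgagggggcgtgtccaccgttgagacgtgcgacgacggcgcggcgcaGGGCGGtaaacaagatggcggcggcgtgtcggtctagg
Cab39: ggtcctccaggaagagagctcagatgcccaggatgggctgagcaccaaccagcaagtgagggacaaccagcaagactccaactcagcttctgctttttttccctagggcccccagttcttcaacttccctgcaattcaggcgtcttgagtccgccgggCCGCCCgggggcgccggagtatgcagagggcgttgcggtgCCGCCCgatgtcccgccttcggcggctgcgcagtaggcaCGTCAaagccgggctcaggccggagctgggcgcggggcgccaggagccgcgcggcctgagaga
Capitals mark 1 GC box for Stk11, and 2 GC boxes and 1 TGACG core, read on the opposite strand, for Cab39. Over the members, 9 of 10 windows held a GC box, 4 held TGACG and 0 held CACGTG, against 33.1%, 21.2% and 6.42% of all 33469 windows. The windows of the members are rich in CpG, with 22 to 49 CpG against a median of 7 over all windows. Each of the motifs contains a CpG, and the shares over windows of like CpG content were not computed. The counts are therefore not read as a trait of these genes. A match is a run of letters and was not tested as a binding site, and the arrays do not read the start region.

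The calmodulin-dependent kinase kinases differed in sign. Camkk1, which encodes CaMKK alpha, gave 6.71 with 2RS30 and 6.23 with 2RH30, differing by -0.48 (-0.72 after level adjustment). Camkk2, which encodes CaMKK beta, the form known as an AMPK kinase, gave 4.98 with 2RS30 and 5.58 with 2RH30 in its brighter probe set, differing by 0.61 in both forms. Its dim probe set read 4.98 and 5.14, differing by 0.16 (0.25 after level adjustment). The difference of Camkk1 minus that of Camkk2 was -1.09 (level-adjusted -1.33). It was the largest gap among the isoform pairs, and it is smaller with the dim Camkk2 probe set. The SD of 0.83 holds for a single probe set, whereas 2 readings enter this gap, each with its own error. Whether the gap exceeds that joint error was not tested.

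**Figure D2:**
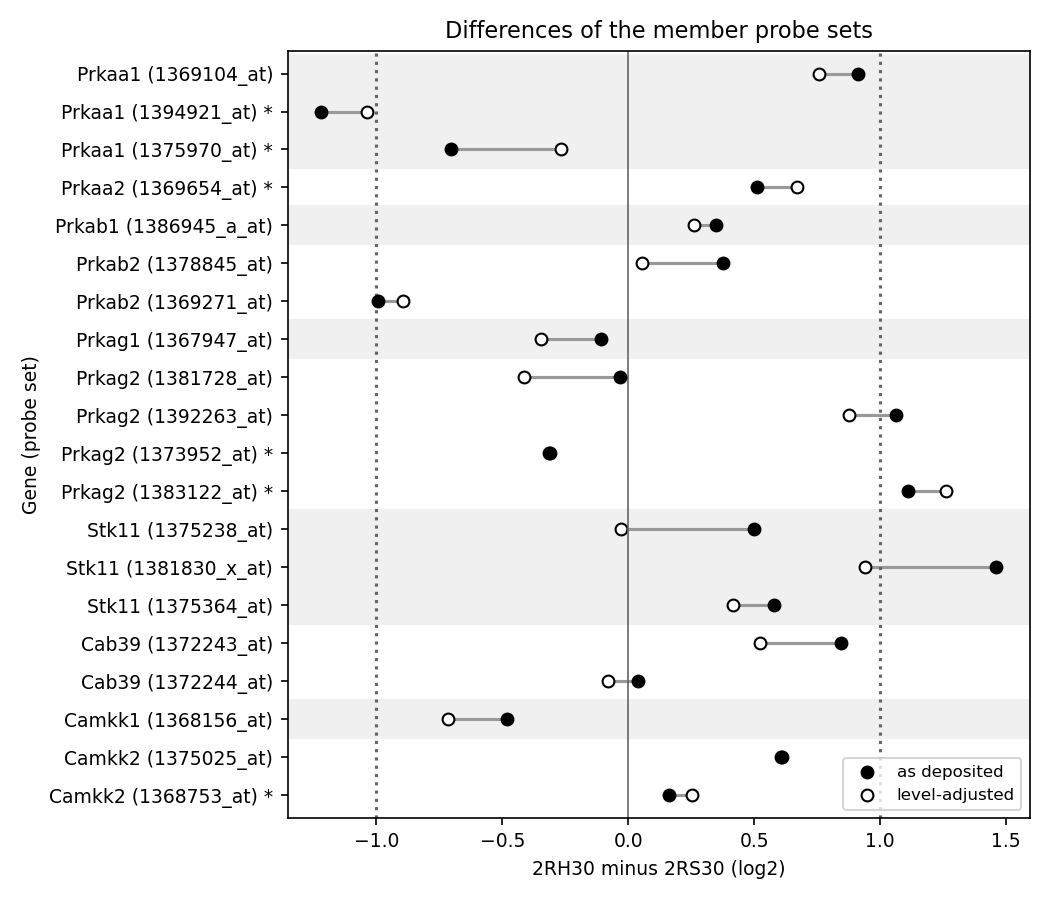
The horizontal axis gives 2RH30 minus 2RS30 (log2) for the 20 probe sets (vertical axis, grouped by gene, dim ones with an asterisk), as deposited (filled) and level-adjusted (open). Dotted lines stand at 2-fold. In the deposited values 3 points lie to the right of the right line and 1 to the left of the left line, and level-adjusted 1 and 1 do.

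Read from its brightest probe set, no member reached 2-fold in either direction, as deposited or level-adjusted, while over all genes 11.5% were higher and 9.62% lower as deposited and 8.95% and 9.31% were so level-adjusted. In descending order the differences were those of Prkaa1, Cab39, Camkk2, Prkaa2, Stk11, Prkab2, Prkab1, Prkag2, Prkag1 and Camkk1, from 0.91 to -0.48. The largest step between neighbours in this order was 0.38, from Prkab1 to Prkag2, smaller than the SD of 0.55 or 0.83 for probe sets of 1 gene, so neighbours did not differ beyond that spread. Of single genes, the difference of Prkaa1 exceeded 0.83 and that of Cab39, at a mean level just above 7, exceeded 0.55, but level-adjusted, at 0.76 and 0.52 against SDs of 0.83 and 0.56, neither did. For the 10 genes the median was 0.44 as deposited and 0.16 level-adjusted, against 0.11 and 0.02 over all genes. Among the 6 genes with several probe sets, 3 (Prkaa1, Prkab2 and Prkag2) had probe sets on both sides of 0. Over all genes this was so for 41.7% of those with 2 probe sets and 66.2% of those with 3.

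Probe sets also differ in the sequence record from which the array was designed. Of the 20, 6 were assigned to a RefSeq mRNA and 14 to another GenBank record. The 4 probe sets past 2-fold were all among the 14, and the RefSeq probe set of Prkab2 fell just short at -0.99. The share past 2-fold for each record type over the whole array was not computed. The count is therefore not read as a result about record type. The 6 RefSeq probe sets, for Prkaa1, Prkaa2, Prkab1, Prkab2, Camkk1 and Camkk2, differed by -0.99 to 0.91 with a median of 0.25.

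**Figure D3:**
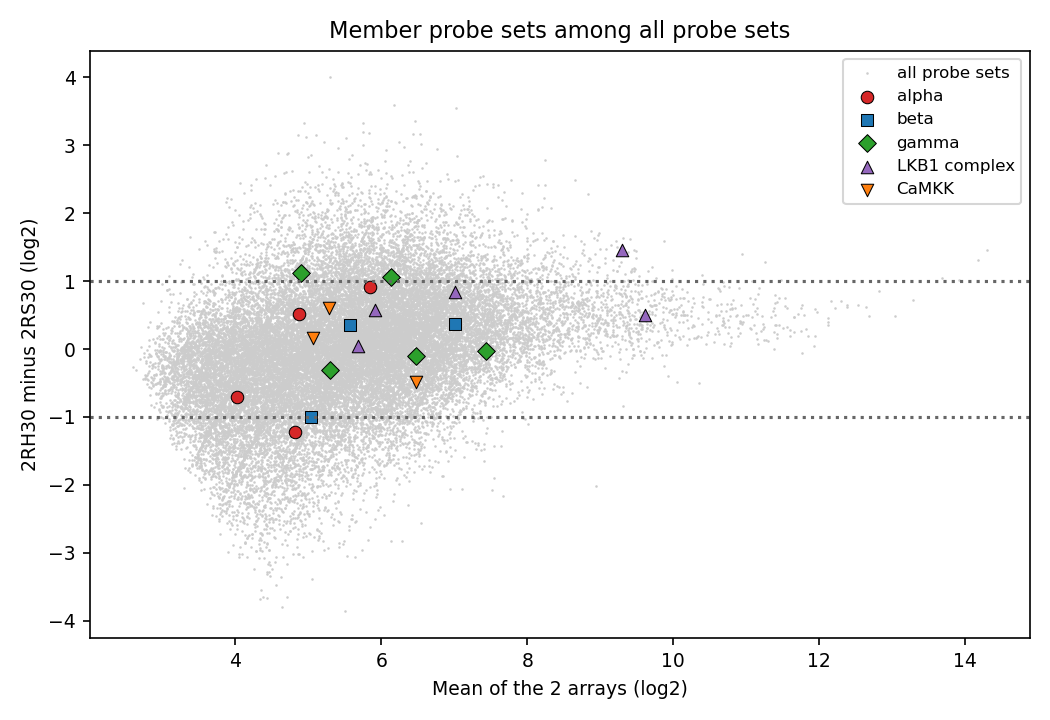
The vertical axis gives 2RH30 minus 2RS30 (log2) and the horizontal axis the mean level on both arrays (log2) for all 31042 probe sets (grey) and the 20 member probe sets (coloured by subunit or complex). Dotted lines mark a 2-fold difference. The members lie within the grey cloud, and the Stk11 probe set at 1.46 lies near its upper edge at that level.

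The other genes of the pathway were read from 6 lists with 68 genes, each gene from its brightest probe set. The counts below stand against 11.5% of all genes that were 2-fold or more higher and 9.62% lower as deposited, and 8.95% and 9.31% level-adjusted, and against 56.1% of all genes above 0 (51.2% level-adjusted). Of the other AMPK and LKB1 complex genes 6 of 6 were measured. None was 2-fold higher and 1 was lower, Map3k7, which encodes TAK1, a further kinase upstream of AMPK, at 6.09 with 2RS30 and 4.65 with 2RH30, differing by -1.44 (-1.46 after level adjustment). Its activator Tab1 differed by 0.30 (level-adjusted 0.01). The STRAD pseudokinase Strada differed by 0.36 (level-adjusted 0.33). Stradb, Cab39l and the gamma3 subunit Prkag3 were dim and differed by 0.15, 0.57 and 0.10 (level-adjusted 0.59, 0.92 and 0.44). Each of these 6 genes had a single probe set. The median of the list was 0.22 as deposited and 0.39 level-adjusted, with 5 of 6 above 0 in both forms.

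Of 12 AMPK-related kinases, which LKB1 also activates, 10 were measured, with 3 that read 2-fold or more higher in 2RH30 and 1 lower, as deposited and level-adjusted. The median was 0.50 (level-adjusted 0.47). The salt-inducible kinase Sik1 gave 6.84 with 2RS30 and 8.40 with 2RH30, differing by 1.55 (1.14 after level adjustment), but 0.32 in its other probe set. Mark3, a microtubule-affinity regulating kinase, differed by 1.30 in both forms. The other higher gene was Sik3 as deposited, at 1.18 (level-adjusted 0.79) with 0.04 in its other probe set, and the dim Mark1 level-adjusted, at 1.22 (0.79 as deposited), both named after their values were seen. The lowest were Sik2 at -1.22 (level-adjusted -1.24), with -0.39 in its other probe set, and Snrk at -0.55 (level-adjusted -0.81), with -0.26 in its other probe set.

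Of 8 genes of calmodulin and the CaM kinase cascade 5 were measured and none was past 2-fold as deposited. Level-adjusted, Pnck, which encodes CaM kinase I beta, was lower at -1.19 (-0.94 as deposited). Calm2, which encodes calmodulin, and Camk1 differed by 0.71 and 0.30 (level-adjusted 0.42 and -0.02), and Camk4 by -0.05 (level-adjusted -0.12), with -0.93 in its other probe set. The median was -0.05 (level-adjusted -0.12).

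Of 15 regulators and interaction partners of AMPK 12 were measured, with 1 that read 2-fold or more higher and 0 lower in both forms. It was Ampd3, an AMP deaminase, at 5.32 with 2RS30 and 6.60 with 2RH30, differing by 1.28 (1.11 after level adjustment). Ampd2, of the same enzyme family, differed by 0.83 (level-adjusted 0.60), but by -0.65 in its other probe set. As deposited, the lowest genes that were not dim were Ckb, a creatine kinase, at -0.28 (level-adjusted -0.57) and the sestrin Sesn1 at -0.01 (level-adjusted -0.30), with -0.97 in its other probe set. The median was 0.19 (level-adjusted 0.03).

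Of 15 AMPK substrates in metabolism 14 were measured, with 2 that read 2-fold or more higher and 1 lower as deposited, and 2 and 0 level-adjusted. Lipe, which encodes hormone-sensitive lipase, gave 5.83 with 2RS30 and 7.87 with 2RH30, differing by 2.04 (1.75 after level adjustment), but 0.01 in its other probe set. Mff, a mitochondrial fission factor, differed by 1.28 (level-adjusted 1.08) and by 0.82 in its other probe set. Crtc2, a CREB coactivator, differed by -0.72 (level-adjusted -0.84), and Tbc1d1, a Rab GTPase-activating protein, by -0.49 (level-adjusted -0.68), with 0.12 in its other probe set. The gene that was 2-fold lower was the dim Ppargc1a, which encodes the coactivator PGC-1 alpha, at -1.03 (level-adjusted -0.84), with -0.53 and -0.61 in its other probe sets. It is named here after its value was seen. The median of the list was 0.20 as deposited and -0.04 level-adjusted.

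**Figure D4:**
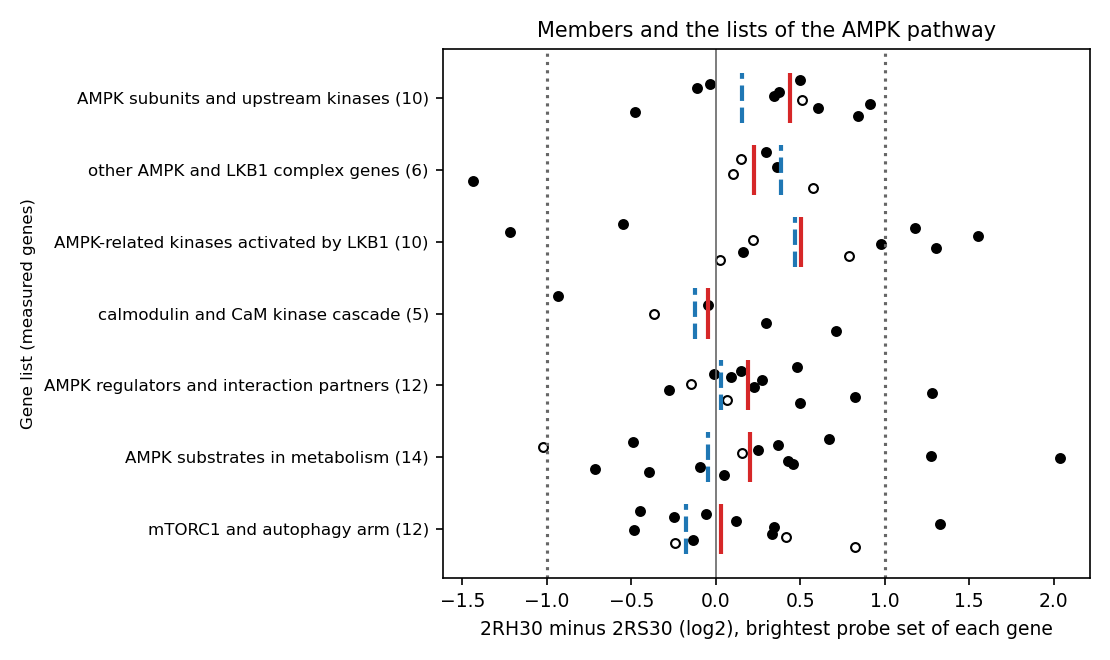
The horizontal axis gives 2RH30 minus 2RS30 (log2) of each measured gene, read from its brightest probe set, for the members and the 6 pathway lists (vertical axis, number of measured genes in brackets). Open points are dim, vertical bars mark the median as deposited (red, solid) and level-adjusted (blue, dashed), and dotted lines mark 2-fold. None of the 10 members lies outside the dotted lines.

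Markers of both medulla and cortex were bright in the dissected tissue. All 7 chromaffin cell markers were above the median of the arrays, with the catecholamine enzymes Th at 11.45 with 2RS30 and 11.96 with 2RH30 and Pnmt at 11.35 and 11.67. The 5 measured markers of the adrenal cortex were bright as well, among them Star at 11.81 and 12.51 and Cyp11b1 at 10.98 and 11.46. The chromaffin median was 0.51 and the cortical median 0.60 (level-adjusted 0.09 and 0.03), and the sums of the log2 values went from 65.03 to 69.17 and from 53.35 to 56.27. Of the macrophage markers, 3 of 5 were 2-fold or more higher as deposited, against 11.5% of all genes. They were C1qa at 2.71, Cd68 at 1.60 and C1qb at 1.38, where C1qa was under the array median with 2RS30, at 3.06. Csf1r and Ptprc were at -0.77 and -0.71, with -2.13 in the other probe set of Ptprc. The median of the 5 was 1.38, and the sum went from 26.07 to 30.29. The 4 adipocyte markers were all below 0 (median -0.63), where 56.1% of all genes were above 0. Fabp4 was past 2-fold at -1.19, against 9.62% of all genes that were lower by that much. The sum was 22.38 in 2RS30 and 19.68 in 2RH30. The 3 measured Schwann and sustentacular markers had a median of 0.09 with sums of 14.72 and 15.04, and the 3 endothelial markers one of 0.20 with sums of 14.97 and 15.09. In each of these lists 2 of the 3 markers were dim, and 2 of the 3 were above 0 as deposited. All members are expressed in many cell types, so the cells that gave their signal are not known, and fewer cells of a type cannot be told apart from less RNA per cell. The part of these cell types in the values of the members was not tested.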

How the data were processed

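Total RNA of the left adrenal medulla was pooled from 6 rats per group and hybridized to 1 array per group. The values deposited by the authors are on a log2 scale, 1 for each probe set on each array. Affymetrix Expression Console is named in the processing notes of the submitters, with no version. The study used GCRMA in Partek and describes its deposited tables as raw or quantile-normalized. The values of the 2 arrays used here did not share 1 distribution, with SDs of 1.28 and 1.57. The summarization method was not given in the sources used here. The log2 scale was read from the range of the values.
The 57 array controls of 31099 probe sets were left out. Probe sets were named from the platform annotation, and symbols were updated by gene number through RefSeq (GRCr8): 20826 named 1 gene, 436 several and 9780 none, and 20758 gene numbers matched. The difference is the value of 2RH30 minus that of 2RS30. The level adjustment removed the trend of differences with mean level by lowess (fraction 0.3, 3 iterations). The brightest probe set, by mean level, stood for its gene. The number of arrays limits the precision, and 1 array per group allows no test.
The members and lists were chosen with earlier results of these data known. All members were named, with all genes of the first pathway list and up to 2 highest and 2 lowest genes of each other list that were not dim. The steps were tested on simulated data. Alternatives were other scalings, thresholds and choices of probe sets. Tools were Python 3.11.15, pandas 2.3.3, numpy 2.4.6, statsmodels 0.14.6 and matplotlib 3.10.9.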

Additional observations from a re-analysis of the deposited data

How the results depend on the processing

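As deposited, 3 of 20 probe sets passed 2-fold upward and 1 downward. The higher count was 1 after quantile normalization and 1 after lowess level adjustment. A 1.5-fold threshold gave 6 higher and 3 lower, and a 3-fold threshold gave 0 and 0. By construction, a lower threshold cannot give fewer and a higher one cannot give more. With 1 probe set per gene the counts were 0 and 0. Median centring gave 2 lower, because the second Prkab2 probe set passed to -1.01. Leaving out dim probe sets gave 0 lower, where 1745 of all 18446 probe sets that were not dim were 2-fold or more lower. The shares of all probe sets past 1.5-fold or 3-fold were not computed, nor were those past 2-fold after quantile normalization or median centring. The member counts at these settings are therefore not read as a result about the members. The median of 0.36 was 0.17 after quantile normalization and 0.15 after lowess. For single genes 68 alternative values were read, many of which could not move by construction. Leaving out dim probe sets, or those open to several transcripts, never replaced the brightest probe set of a gene that kept a value. The mean over a single probe set repeats it, and median centring shifted all genes by the same small amount. With that limit, 63 of the 68 stayed within the SD between probe sets at the level of the gene (66 within the SD of 0.82 over all levels). Past it were Prkaa1, at -0.34 with the mean over its probe sets and -0.18 with lowess and that mean, Prkab2 at -0.31 and -0.42 likewise, and Cab39 at 0.22 with lowess and the mean. In all, 7 values in 4 genes under 2-fold changed sign, among them those of Prkaa1 and Prkab2, Prkag2 at 0.46 with the mean and Stk11 at -0.03 after lowess. Prkab1 had no value once probe sets open to several transcripts were dropped, and Prkaa2 none without dim probe sets. No paired analysis was possible because either side holds 1 array, and for the same reason no array could be left out. The table gives no background signal, so whether a dim probe set was detected is unknown.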

Other observations

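The mTORC1 and autophagy arm downstream of AMPK was read from a list of 12 genes, all of them measured. As deposited 1 was 2-fold or more higher and 0 were lower, and level-adjusted 2 and 0. Rptor, which encodes raptor, the mTORC1 subunit that AMPK phosphorylates, gave 4.92 with 2RS30 and 6.25 with 2RH30, differing by 1.33 (1.23 after level adjustment). Atg13, a subunit of the ULK complex, was dim and was the other gene past 2-fold when level-adjusted, at 1.06 (0.82 as deposited), and is named after its value was seen. Rheb, the GTPase that activates mTORC1, differed by 0.35 (level-adjusted -0.22) and by 0.79 in its other probe set. The lowest as deposited were Rb1cc1, a subunit of the ULK complex, at -0.48 in both forms and -0.92 in its other probe set, and the autophagy kinase Ulk2 at -0.45 (level-adjusted -0.69). Level-adjusted, Ulk2 was the lowest. Also below Rb1cc1 were Tsc2 at -0.51 (-0.25 as deposited) and Deptor at -0.49 (-0.14 as deposited, -0.80 in its other probe set). Both are inhibitors of mTOR signalling and were named after their values were seen. The median of the list was 0.03 as deposited and -0.18 level-adjusted.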
